A study of Rattus norvegicus with 8 samples.

Results

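The 9 enzymes described here carry out steps that turn farnesyl diphosphate into squalene and squalene into cholesterol, and in pathway order their genes are Fdft1, Sqle, Lss, Cyp51, Msmo1, Nsdhl, Hsd17b7, Sc5d and Dhcr7. They were chosen by name from what the enzymes are known to do, with earlier results of these data in hand. They are 9 of the 13250 genes that were tested. Their RNA was measured by bulk RNA-seq in primary nucleus pulposus (NP) cells, cells from the soft centre of the spinal disc, isolated from adult Sprague Dawley rats and grown in DMEM with serum. The 4 Sirt6-KD libraries (S5 to S8, ShSirt6) came from cells transduced with a mixture of lentiviruses carrying 3 ShRNA clones against Sirt6, a NAD+-dependent histone deacetylase. The 4 Sirt6-Ctrl libraries (S1 to S4, ShCtrl) came from cells transduced with lentivirus carrying a control ShRNA, so that both groups went through transduction and selection. The study describes the libraries as independent experiments on cells of 4 rats, but the labels do not say which control belongs to which knockdown, and a knockdown leaves part of the Sirt6 transcript in place.

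Cholesterol synthesis after the mevalonate steps starts when squalene synthase (Fdft1) joins farnesyl diphosphate molecules head to head into squalene. Squalene epoxidase (Sqle) adds oxygen, lanosterol synthase (Lss) folds the chain into the first sterol, and the later enzymes remove methyl groups, move or reduce double bonds and leave cholesterol. Many genes of this route are known targets of the sterol regulatory element binding protein SREBP-2, which is held in the endoplasmic reticulum when membrane sterol is high and released when it is low, and the route uses much molecular oxygen, which is scarce in the avascular disc. These are general facts about the pathway and were not measured here.

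All 9 enzymes were lower in Sirt6-KD cells, from 1.66-fold lower for Lss to 8.97-fold lower for Cyp51, although Lss and Hsd17b7 changed sign when libraries were scaled to their spike-in RNA instead of to their genes. A gene was called when edgeR's Benjamini-Hochberg adjusted p was below 0.05 and its fold change was above 1.5. By that rule 9 of 9 enzymes were called lower, where 1416 of the 13250 genes tested (10.7%) were called lower and 1063 (8.02%) were called higher. Over the whole table that split was 4 lower and 20 higher with spike-in scaling, and 1667 lower and 647 higher after a correction for gene length. In all 9, every Sirt6-KD library lay below every Sirt6-Ctrl library, which held for 2069 genes (15.6%) over the whole table. The median log2 fold change of the 9 enzymes was -1.42 against -0.016 over all genes tested. The size of the fall did not follow the order of the route. Cyp51, Dhcr7, Msmo1 and Sqle were more than 4-fold lower, Nsdhl was 2.68-fold lower, and Fdft1, Sc5d, Hsd17b7 and Lss were 2.08-fold lower or less. In bulk RNA, fewer cells of a type and less RNA per cell cannot be told apart.

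Totals ran from 31994838 to 40124813 counts per library and overlapped between the groups (p = 0.257 by exact two-sided permutation). Sirt6, the targeted gene, had a level of 47.5 to 56.4 CPM in the controls and 19.2 to 21.8 CPM in the knockdown libraries (log2 fold change -1.35, SE 0.13, edgeR adjusted p = 0.000713). CPM here is the count scaled to library size after TMM normalization, which sets libraries to the bulk of their genes. Rows of ERCC spike-in RNA, synthetic transcripts added to a sample, had a share of counts of 6.27, 9.80, 3.08 and 2.97% in S1 to S4. In the Sirt6-KD libraries their share was 2.15% to 2.47%, below every control (exact two-sided permutation p = 0.0286, the smallest that 4 against 4 can give). How the spike-ins were added is not given in the sources used here, and S1 and S2 stand apart from the other controls, so each enzyme is also given without S1 and S2 and with libraries scaled to their spike-ins. Scaled to the spike-ins, Sirt6 itself was no longer called, with a log2 fold change of -0.36 (edgeR adjusted p = 0.567). Relative to the median gene in the same scaling it stood at -1.31. Of 12 symbols listed as NP markers, 5 were analysed, and their summed level was 63.7 to 98.2 CPM in controls and 29.3 to 45.0 CPM after knockdown. Of these, Cd24 (37.9 ± 14.4 against 19.2 ± 6.55 CPM), Acan (21.1 ± 23.4 against 13.8 ± 4.08 CPM) and Nog (2.73 ± 1.11 against 0.825 ± 0.669 CPM) were not called. The control mean of Acan leaned on S4 (55.6 CPM), while S1 (4.54 CPM) and S3 (8.83 CPM) lay below every knockdown library. Krt8, an NP cytokeratin (6.56 ± 3.07 against 2.63 ± 0.473 CPM), and Car3, a carbonic anhydrase (16.0 ± 5.25 against 2.47 ± 2.39 CPM), were among the genes called lower, as was Scx (scleraxis, listed with the annulus or fibroblast markers, 63.6 ± 35.9 against 27.6 ± 10.8 CPM), while the defining NP markers Krt18, Krt19, Tbxt, Shh and Col2a1 were not analysed here. The summed level of 4 of 5 annulus or fibroblast markers, nearly all of it from Col1a1, was 13579 to 25882 CPM in controls and 8162 to 17811 CPM after knockdown. Of the 4 macrophage or leukocyte markers 2 were analysed (1.48 to 3.27 CPM in controls, 2.76 to 5.16 CPM after knockdown), and the analysed osteoblast (1 of 3) and adipocyte (1 of 3) markers reached at most 3.46 CPM in any library. None of 4 endothelial markers was analysed here. The part of these markers in the fall of the enzymes was not tested.

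Since the 9 genes moved together, their promoters are shown for the enzymes with the steepest falls and those with the shallowest. RefSeq promoters (rat build GRCr8, from 250 bases before to 50 after the gene's start) were matched by symbol for 7 of the 9 enzymes, and Fdft1 and Sqle had no entry. The 250 bases before the start are printed 5′ to 3′ on the strand of the gene, with exact matches to a CCAAT box (CCAAT) or a GC box (GGGCGG), on either strand, in capitals. Cyp51 lies at chr4:30991443-30991692 (plus strand), Dhcr7 at chr1:208444184-208444433 (plus strand), Msmo1 at chr16:29746863-29747112 (plus strand), Hsd17b7 at chr13:84722755-84723004 (minus strand) and Lss at chr20:12118231-12118480 (minus strand).
Cyp51: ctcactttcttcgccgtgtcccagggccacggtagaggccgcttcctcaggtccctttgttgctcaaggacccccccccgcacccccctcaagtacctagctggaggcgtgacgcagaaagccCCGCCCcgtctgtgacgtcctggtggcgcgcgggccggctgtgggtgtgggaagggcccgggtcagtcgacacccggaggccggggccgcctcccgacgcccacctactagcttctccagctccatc
Dhcr7: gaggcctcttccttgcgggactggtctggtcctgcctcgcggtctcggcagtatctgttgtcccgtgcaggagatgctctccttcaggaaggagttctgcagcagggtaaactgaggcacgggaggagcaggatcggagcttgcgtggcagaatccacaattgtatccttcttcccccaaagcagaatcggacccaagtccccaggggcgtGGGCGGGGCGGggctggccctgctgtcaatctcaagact
Msmo1: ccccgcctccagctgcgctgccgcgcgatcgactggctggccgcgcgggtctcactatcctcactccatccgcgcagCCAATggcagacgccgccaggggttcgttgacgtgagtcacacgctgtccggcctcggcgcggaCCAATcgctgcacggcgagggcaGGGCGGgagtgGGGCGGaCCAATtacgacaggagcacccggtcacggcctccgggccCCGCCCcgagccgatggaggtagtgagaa
Hsd17b7: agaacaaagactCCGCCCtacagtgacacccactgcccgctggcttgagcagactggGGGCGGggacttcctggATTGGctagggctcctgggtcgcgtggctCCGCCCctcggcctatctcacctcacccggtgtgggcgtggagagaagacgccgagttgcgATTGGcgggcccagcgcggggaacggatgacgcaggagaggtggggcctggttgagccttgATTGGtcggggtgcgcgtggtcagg
Lss: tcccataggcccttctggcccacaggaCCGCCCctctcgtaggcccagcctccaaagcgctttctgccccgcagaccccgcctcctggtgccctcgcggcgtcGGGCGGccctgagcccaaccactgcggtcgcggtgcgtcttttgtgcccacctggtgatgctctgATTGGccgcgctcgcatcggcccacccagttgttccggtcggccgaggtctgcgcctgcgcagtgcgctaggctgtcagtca
Over the whole 300 bases, GGGCGG was found in 6 of the 7 enzyme promoters (all but Nsdhl) and in 33.1% of all 33469 promoters of the same length. CCAAT was found in 5 of the 7 (Lss, Msmo1, Nsdhl, Hsd17b7 and Sc5d) against 37.5% of all promoters. Msmo1 held 3 CCAAT boxes and 3 GC boxes, while Cyp51 and Dhcr7, the enzymes with the steepest falls, held GC boxes and no CCAAT box. A single 11-base run in Dhcr7 holds 2 GC boxes that share 1 base, and Cyp51 has a further GC box after its start. The letters TCACNCCAC, a common form of the sterol regulatory element, were found exactly in 0 of the 7, and in 1.12% of all promoters. With 1 base allowed to differ they were found in 4 of the 7 (Cyp51, Msmo1, Nsdhl and Hsd17b7) and in 23.7% of all promoters. The matches with 1 base different, read in the direction of the motif, were TCACGCCTC 147 bases before the start of Cyp51, TCACTCCAT 190 bases before that of Msmo1, TCACAGCAC 106 bases before that of Nsdhl, and TCACCTCAC 130 and TCTCTCCAC 110 bases before that of Hsd17b7. The 7 promoters were 57.3% to 71.0% G and C, where the median of all promoters was 51.7%. A match of letters is not a bound site, and the RNA counts hold no measurement there. Chromatin accessibility (ATAC-seq), which the study also measured, was not analysed here.

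Squalene synthesis and its oxidation open the route. Fdft1 (ENSRNOG00000021314), squalene synthase, measured 77.3, 73.4, 75.6 and 74.8 CPM in S1 to S4 and 37.4, 33.5, 40.05 and 34.6 CPM in S5 to S8. Its controls lay closer together than those of any other enzyme, and the lowest of them was 1.83 times the highest knockdown library. Its mean was 75.3 ± 1.63 CPM in Sirt6-Ctrl against 36.4 ± 2.95 CPM in Sirt6-KD (± SD, n = 4 each), which edgeR put at 2.07-fold lower (95% interval 1.72 to 2.49, adjusted p = 0.00143). Sqle (ENSRNOG00000009550), squalene epoxidase, catalyses a rate-limiting oxidation of the sterol route. It measured 228, 221, 142 and 165 CPM in S1 to S4 and 47.9, 47.1, 42.9 and 46.5 CPM in S5 to S8. Here S1 and S2 stood above S3 and S4, while the knockdown libraries were nearly equal. The mean was 189 ± 42.1 CPM against 46.1 ± 2.24 CPM, 4.10-fold lower (95% interval 3.17 to 5.30, edgeR adjusted p = 0.000194). Without S1 and S2 the log2 fold change was -1.72 in place of -2.04.

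Lss (ENSRNOG00000054549), lanosterol synthase, closes oxidosqualene into the sterol ring system, and its fall was the smallest of the 9. It measured 86.9, 55.1, 86.9 and 84.1 CPM in S1 to S4 and 53.8, 41.6, 46.0 and 47.5 CPM in S5 to S8. The groups did not overlap, but S2 lay close to the knockdown libraries, at 1.02 times S5. The mean of 78.3 ± 15.5 CPM against 47.2 ± 5.03 CPM gave a 1.66-fold lower level (95% interval 1.28 to 2.15, edgeR adjusted p = 0.0158), where spike-in scaling gave a log2 fold change of 0.15. The call was lost without S1 (adjusted p = 0.0601), S6 (0.0591), S7 (0.0526) or S8 (0.0522), with log2 fold changes from -0.85 to -0.65 over the libraries left out in turn. Over the alternatives other than glmTreat its adjusted p ran from 0.00234 to 0.835.

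The largest falls of the middle of the route were in the enzymes that strip methyl groups from lanosterol. Cyp51 (ENSRNOG00000007234), the cytochrome P450 that removes the methyl group at carbon 14, measured 740, 672, 506 and 577 CPM in S1 to S4 and 51.0, 62.4, 97.8 and 66.9 CPM in S5 to S8. The lowest control library was 5.18 times the highest knockdown library, S7, which itself stood above the other knockdown libraries. Cyp51 was 8.97-fold lower (95% interval 6.38 to 12.6, edgeR adjusted p = 7.29e-05), and of the 13250 genes tested only 27 had a lower log2 fold change and 5 a smaller p. Msmo1 (ENSRNOG00000032297), the oxidase that begins the removal of the methyl groups at carbon 4, measured 374, 296, 228 and 282 CPM in S1 to S4 and 49.0, 53.6, 61.0 and 57.2 CPM in S5 to S8. As for Sqle and Cyp51, S1 was the highest and S3 the lowest control. The mean was 295 ± 60.3 CPM against 55.2 ± 5.15 CPM, 5.34-fold lower (95% interval 4.14 to 6.90, edgeR adjusted p = 7.29e-05). Without S1 and S2, the log2 fold changes were -2.95 for Cyp51 and -2.20 for Msmo1, both still called.

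Nsdhl and Hsd17b7 complete the removal of the carbon 4 methyl groups, and both fell less than Msmo1 did. Nsdhl (ENSRNOG00000057814), the sterol dehydrogenase that releases the carbon as carbon dioxide, measured 44.6, 33.8, 30.5 and 38.4 CPM in S1 to S4 and 13.8, 13.5, 13.2 and 14.4 CPM in S5 to S8. The knockdown libraries were nearly equal, with an SD of 0.507 CPM, and Nsdhl was 2.68-fold lower (95% interval 2.07 to 3.48, edgeR adjusted p = 0.00149). Hsd17b7 (ENSRNOG00000002826), the reductase of the resulting ketone, measured 23.4, 20.5, 14.1 and 16.2 CPM in S1 to S4 and 9.95, 8.48, 7.14 and 11.6 CPM in S5 to S8. The gap between the groups was narrow, S3 being 1.22 times S8. Hsd17b7 was 2.0-fold lower (95% interval 1.37 to 2.91, edgeR adjusted p = 0.0189), where spike-in scaling gave a log2 fold change of 0.087. Its call was lost without S1 (adjusted p = 0.0608), S5 (0.0523), S6 (0.0657) or S7 (0.0646), and without S1 and S2 together, where its log2 fold change was -0.70 (adjusted p = 0.0772). Over the alternatives other than glmTreat its adjusted p ran from 0.00188 to 0.898. RefSeq also lists copies named Cyp51a1-ps1 and Nsdhl-ps1, and whether reads of Cyp51 and Nsdhl were shared with them is uncertain.

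The last steps before cholesterol or its immediate precursor rest on Sc5d and Dhcr7. Sc5d (ENSRNOG00000008305), lathosterol oxidase, which adds the double bond at carbon 5, measured 122, 94.9, 97.8 and 113 CPM in S1 to S4 and 44.0, 51.9, 52.0 and 57.6 CPM in S5 to S8. It was 2.08-fold lower (95% interval 1.69 to 2.57, edgeR adjusted p = 0.00224). Dhcr7 (ENSRNOG00000020776), the reductase that turns 7-dehydrocholesterol into cholesterol, measured 30.7, 18.9, 19.98 and 28.9 CPM in S1 to S4 and 4.08, 2.78, 3.36 and 2.37 CPM in S5 to S8. These rest on 612 to 1193 counts in the control libraries and 80 to 141 in the knockdown libraries, far above the 3 counts (0.0727 to 0.0927 CPM) taken as the limit of detection. The lowest control was 4.64 times the highest knockdown library. Dhcr7 was 7.82-fold lower (95% interval 5.12 to 11.9, edgeR adjusted p = 0.000462), next to Cyp51 in size although the adjacent Sc5d fell much less.

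**Figure D1:**
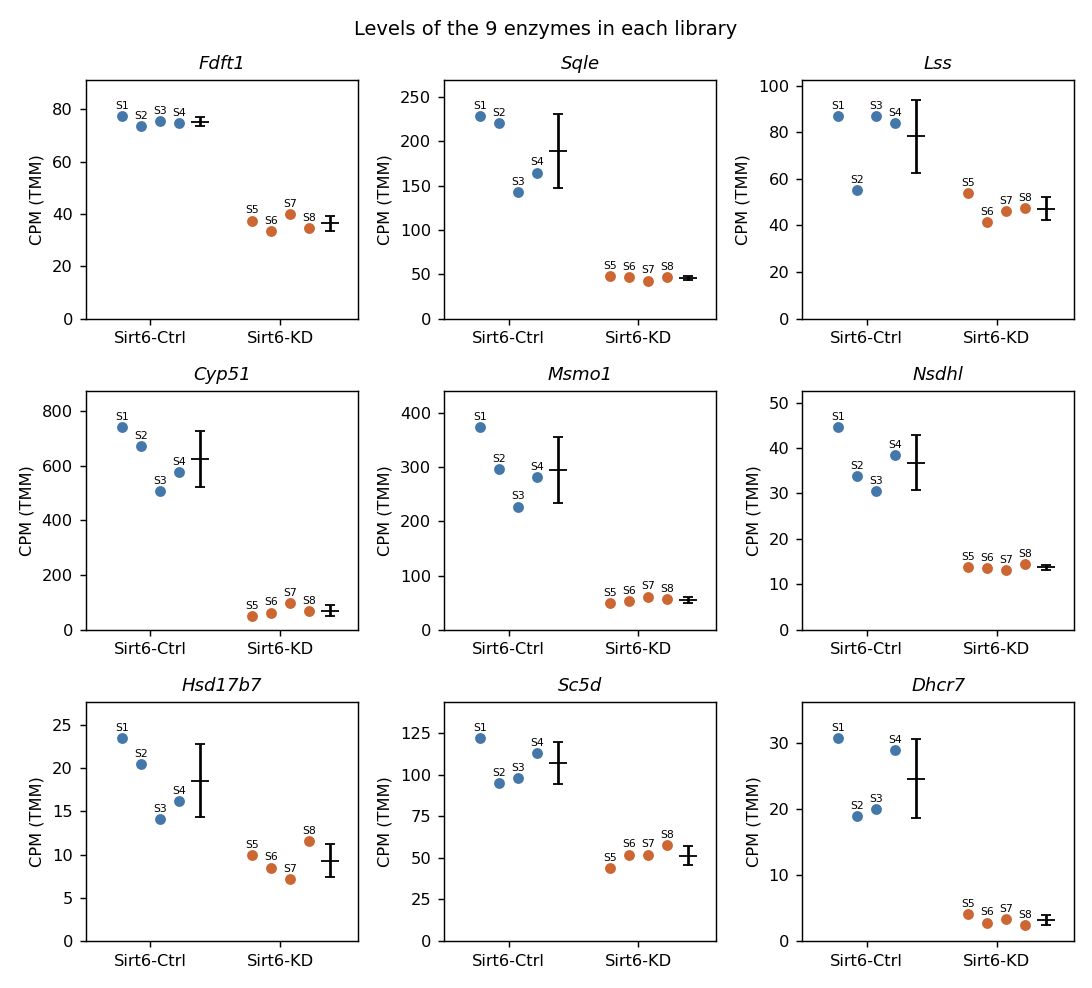
Level of each enzyme in CPM after TMM normalization (vertical axes start at 0), 1 point per library, with blue for Sirt6-Ctrl (S1 to S4), orange for Sirt6-KD (S5 to S8) and black bars for the mean ± SD (n = 4). The groups are apart in every panel, most narrowly for Lss, where S2 (55.1 CPM) lies just above S5 (53.8 CPM), and most widely for Cyp51; on spike-in-scaled levels only Cyp51 keeps its groups apart.

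Within the control group S1 was the highest library for 8 of the 9 enzymes (S3 for Lss), and the lowest was S3 for 5 and S2 for 4. In the knockdown group no library led: S5, S7 and S8 were each the highest for 3 enzymes. Summed over the 9 enzymes, the level was 1201 to 1727 CPM in controls and 311 to 363 CPM after knockdown, or 0.132% to 0.177% against 0.0326% to 0.0390% of the counts on genes. Leaving out S1 and S2 kept 8 of 9 calls, the exception being Hsd17b7, with log2 fold changes of -1.04 for Fdft1, -0.85 for Lss, -1.32 for Nsdhl, -1.03 for Sc5d and -2.95 for Dhcr7. DESeq2 and limma-voom each called all 9 lower, and a test against a 1.5-fold change itself (glmTreat) called 7, leaving out Lss and Hsd17b7. Of all 13250 genes tested, DESeq2 called 1652 lower, limma-voom 1309 and glmTreat 185.

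The scale of the fall depended on what the libraries were scaled to. With spike-in scaling the median gene of the whole table shifted by 0.94 (log2) upward in Sirt6-KD, and 0 of the 9 enzymes were called lower. At an unadjusted p below 0.05 in edgeR, 4 of 9 enzymes were lower. Over the 13250 genes tested, 44 were lower and 4219 higher at that threshold. In that scaling only Cyp51 kept its groups apart, at 225 to 780 against 86.9 to 183 spike-in-scaled CPM, and its log2 fold change was -2.10 (edgeR adjusted p = 0.0711). Dhcr7 was at -2.03 (adjusted p = 0.0801), Msmo1 at -1.37 (0.0897), Sqle at -0.94 (0.151) and Nsdhl at -0.43 (0.506). Sc5d (-0.10) and Fdft1 (-0.089) were near 0, and Lss (0.15) and Hsd17b7 (0.087) changed sign. Relative to the median gene in the same scaling, all 9 remained negative, from -0.80 for Lss to -3.05 for Cyp51. Of the 17 alternatives other than glmTreat, this scaling gave every enzyme its largest adjusted p. Without spike-in scaling, the largest adjusted p of these alternatives ran from 0.00106 for Cyp51 and Msmo1 to 0.0772 for Hsd17b7. For glmTreat only the calls are given.

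**Figure D2:**
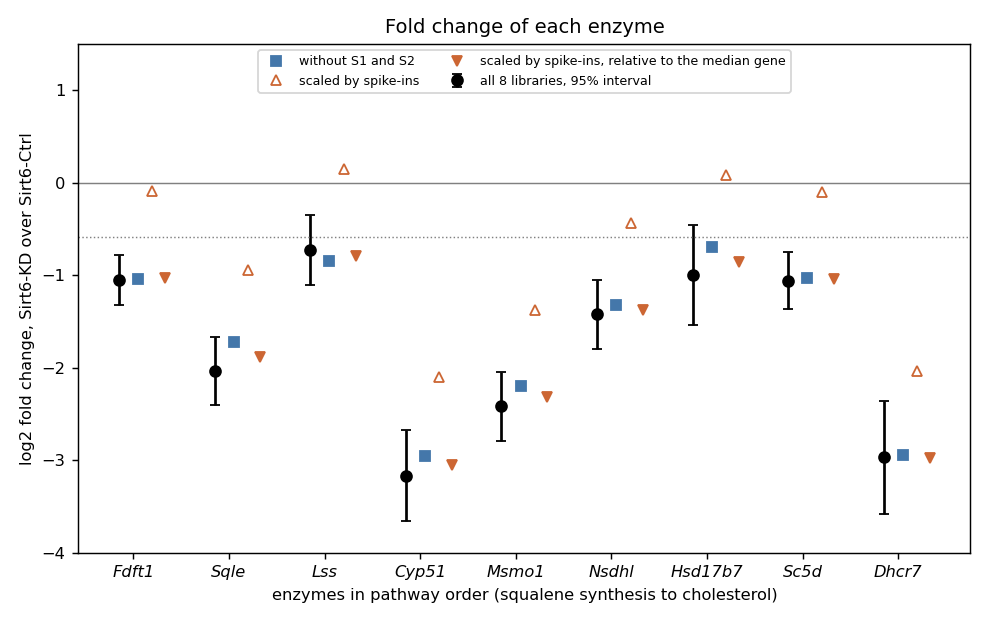
Log2 fold change (Sirt6-KD against Sirt6-Ctrl) of each enzyme in pathway order: black points with 95% intervals use all 8 libraries, blue squares leave out S1 and S2, open triangles scale libraries to their spike-ins, and filled triangles give those values relative to the median gene. The solid line marks no change and the dotted line a 1.5-fold fall; Lss (0.15) and Hsd17b7 (0.087) are the enzymes whose open triangles lie above no change.

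A ratio of the counts of 2 enzymes within a library does not depend on how libraries are scaled, so each enzyme was set against the one before it, over 8 neighbouring pairs. These are ratios of reads and are not corrected for transcript length, so their change between groups is the quantity of interest. For 6 of the 8 pairs the groups did not overlap (exact two-sided permutation p = 0.0286 each, 0.0381 after Benjamini-Hochberg adjustment over the 8). Successive pairs share an enzyme, so the 8 ratios are not separate results. How often the ratios of other gene pairs separate the groups was not measured. The ratio of Cyp51 to Lss changed most, from a mean log2 ratio of 3.0 ± 0.46 in controls to 0.52 ± 0.48 after knockdown (± SD, n = 4 each), a 5.59-fold fall. Dhcr7 over Sc5d went from -2.14 ± 0.19 to -4.05 ± 0.49, a 3.74-fold fall, and Sqle over Fdft1 fell 1.94-fold. In the other direction, Lss over Sqle rose 2.46-fold, Nsdhl over Msmo1 1.99-fold and Msmo1 over Cyp51 1.73-fold. Hence the drop was unequal from step to step. Some enzymes that fell steeply stood beside enzymes that fell less, while Cyp51 (8.97-fold lower) and Msmo1 (5.34-fold lower) are neighbours that both fell steeply. For Hsd17b7 over Nsdhl the difference was 0.42 (log2) with overlapping groups (exact permutation p = 0.0571, adjusted 0.0653). Sc5d over Hsd17b7 differed by -0.065 (exact permutation p = 0.686, adjusted 0.686), with a mean log2 ratio of 2.55 ± 0.30 in Sirt6-Ctrl and 2.48 ± 0.32 in Sirt6-KD. Without S1 and S2, the difference was -0.68 for Sqle over Fdft1 and 0.87 for Lss over Sqle, smaller than with all libraries (-0.96 and 1.30).

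**Figure D3:**
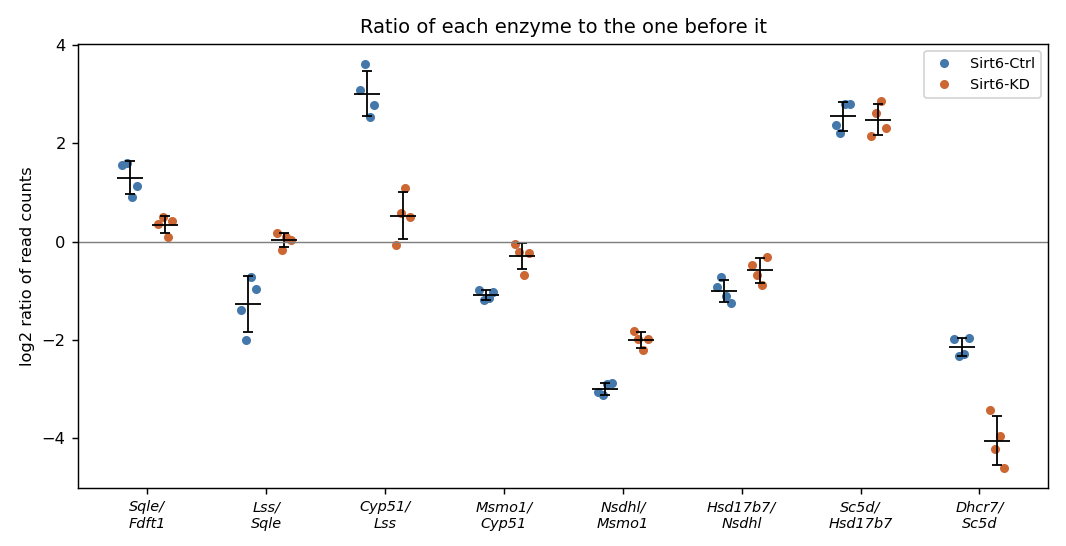
Log2 ratio of the read counts of each enzyme to the enzyme before it, 1 point per library (blue for Sirt6-Ctrl, orange for Sirt6-KD), with black bars for the mean ± SD (n = 4). The groups are apart for 6 of the 8 pairs, with the widest gap for Cyp51 over Lss, and overlap for Hsd17b7 over Nsdhl and Sc5d over Hsd17b7.

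The unequal falls changed which enzymes supplied the reads. Of all reads on the 9 genes, Cyp51 took 43.0% ± 1.54 in Sirt6-Ctrl and 20.7% ± 4.42 in Sirt6-KD, and Msmo1 took 20.2% ± 1.13 and 16.6% ± 0.578 (± SD, n = 4). The shares of Sc5d (7.45% ± 0.882 to 15.5% ± 1.47), Lss (5.52% ± 1.51 to 14.3% ± 2.08) and Fdft1 (5.28% ± 0.774 to 11.0% ± 0.778) were higher in every knockdown library than in any control. The same held for the small shares of Nsdhl (2.55% ± 0.209 to 4.16% ± 0.356) and Hsd17b7 (1.27% ± 0.112 to 2.82% ± 0.647). Shares of Sqle (13% ± 1.41 against 14% ± 1.62) and Dhcr7 (1.70% ± 0.339 against 0.954% ± 0.258) overlapped between groups. A share is bound to the others because they sum to the whole, and no separate test was made of it.

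**Figure D4:**
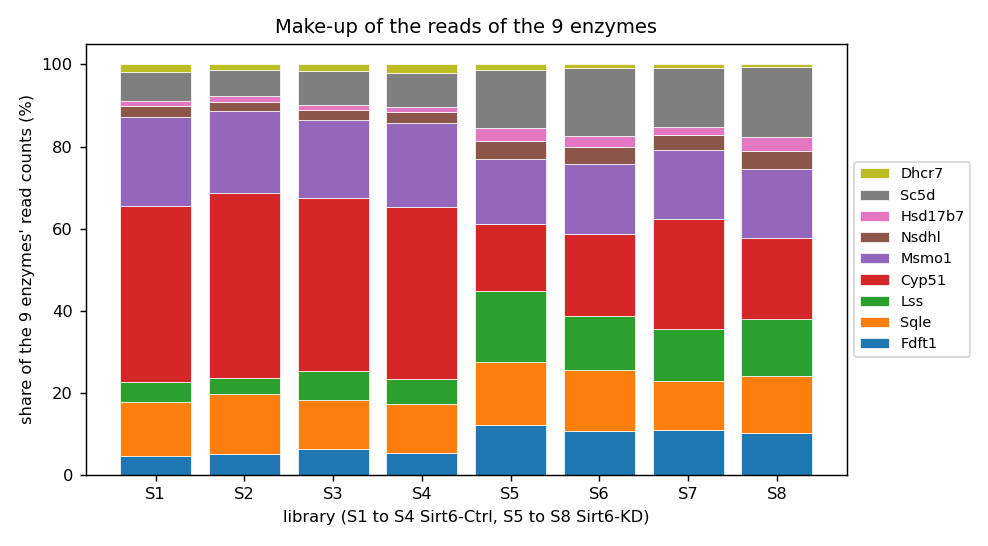
Share of the read counts of the 9 enzymes taken by each of them, in percent, 1 bar per library (S1 to S4 Sirt6-Ctrl, S5 to S8 Sirt6-KD). Cyp51 holds 41.8% to 45.2% of the reads in the control libraries and 16.4% to 26.9% in the knockdown libraries, while Lss, Sc5d and Fdft1 take larger shares in the knockdown libraries.

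The remaining enzymes after squalene and the genes around the route were read from 7 lists of 41 genes, all tested, with 18 called lower, 3 higher and 20 not called, where 10.7% of all genes tested were called lower and 8.02% higher. Of the other enzymes after squalene listed here, 2 of 3 were called lower. Tm7sf2, a sterol C14 reductase that follows Cyp51, fell from 25.2 ± 11.9 to 6.27 ± 1.33 CPM (log2 fold change -2.0, edgeR adjusted p = 0.0053), and without S1 and S2 it stood at -1.30 (adjusted p = 0.0123). Its call was lost with spike-in scaling, at -0.72, which is -1.67 relative to the median gene. Ebp, the sterol isomerase, fell from 18.9 ± 3.74 to 10.6 ± 1.80 CPM (-0.83, adjusted p = 0.0268), although with spike-in scaling it stood at 0.22, which is -0.72 relative to the median gene. The call of Ebp was also lost without S1, S5, S6 or S7, without S1 and S2 together (-0.65, edgeR adjusted p = 0.0887), with glmTreat and with the length correction. Lbr, the lamin B receptor, which shares the C14 reductase activity with Tm7sf2, was not called at 13.3 ± 3.83 against 14.7 ± 2.19 CPM (edgeR adjusted p = 0.703).

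The oxygen-dependent steps of Sqle, Cyp51, Msmo1 and Sc5d draw electrons from small carrier systems, and these did not all move with the enzymes. Por, the cytochrome P450 reductase that serves Sqle and Cyp51, was higher in Sirt6-KD at 359 ± 43.1 CPM against 188 ± 63.6 CPM (log2 fold change 0.93, edgeR adjusted p = 0.0187). Its call was lost without S1, S5, S6 or S7, without S1 and S2, with glmTreat, with spike-in scaling and with the length correction. The cytochrome b5 genes serve Msmo1 and Sc5d, and Cyb5b fell to 35.8 ± 2.23 from 67.5 ± 8.69 CPM (-0.91, adjusted p = 0.00376), a call lost with glmTreat and with spike-in scaling. Cyb5a (-0.60, adjusted p = 0.0315) and Cyb5r3, their reductase (-0.61, adjusted p = 0.036), were just past the 1.5-fold threshold, and of 18 alternatives only 3 kept the call of Cyb5a and 6 that of Cyb5r3. Leaving out S1, S2 or any of S5 to S7 ended both calls, S8 that of Cyb5a and S4 that of Cyb5r3, and without S1 and S2 they stood at -0.31 and -0.47. With spike-in scaling Cyb5a (0.49), Cyb5b (0.081) and Cyb5r3 (0.41) changed sign, and relative to the median gene they stood at -0.46, -0.86 and -0.53, with Por at 0.96.

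Upstream of squalene, 6 of the 7 listed genes of the mevalonate arm were called lower, with a median log2 fold change of -1.82. The list was led by Idi1 (-3.38), which isomerizes isopentenyl diphosphate, and Hmgcs1 (-3.27), HMG-CoA synthase. They were followed by Fdps (-2.53), which makes the farnesyl diphosphate that Fdft1 uses, Mvd (-1.82), a decarboxylase, Acat2 (-1.49), a thiolase, and Pmvk (-0.78, but 0.31 with spike-in scaling and -0.63 relative to the median gene). With spike-in scaling all 6 calls were lost, with Idi1 at -2.23, Hmgcs1 at -2.21, Fdps at -1.40, Mvd at -0.64 and Acat2 at -0.55. Relative to the median gene these 5 stood at -3.18, -3.15, -2.34, -1.58 and -1.49. The call of Acat2 was also lost with glmTreat, and that of Pmvk without S6, S7 or S8, without S1 and S2 and with glmTreat. Mvk, mevalonate kinase, was not called at 26.3 ± 12.6 against 16.4 ± 1.36 CPM. Of 7 enzymes of isoprenoid branches outside the sterol route, 1 was called lower and 1 higher, where 10.7% of all genes tested were called lower and 8.02% higher. Coq2, which attaches the polyprenyl tail in ubiquinone synthesis, was the one called lower (-0.95, but 0.17 with spike-in scaling and -0.78 relative to the median gene). Pggt1b, a subunit of an enzyme that attaches geranylgeranyl groups to proteins, was called higher (0.81). The call of Coq2 was lost without S6 or S7 and with glmTreat, and that of Pggt1b without S5, with glmTreat, with spike-in scaling and with the length correction. The other 5 were not called, at 28.7 ± 5.09 against 20.8 ± 0.843 CPM for Ggps1, 23.0 ± 5.77 against 33.8 ± 2.67 CPM for Fntb, 39.1 ± 13.02 against 39.9 ± 4.55 CPM for Dhdds, 3.94 ± 1.01 against 2.62 ± 0.707 CPM for Pdss1 and 17.8 ± 5.37 against 10.0 ± 2.64 CPM for Pdss2.

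Among the genes that sense sterols, Srebf1 (-2.0), Srebf2 (-1.23) and Insig1 (-1.19) were called lower, and these encode SREBP-1, SREBP-2 and a protein that retains them in the endoplasmic reticulum. With spike-in scaling all of these calls were lost, with Srebf1 at -0.97, Srebf2 at -0.20 and Insig1 at -0.17. Relative to the median gene they stood at -1.91, -1.14 and -1.11. Scap, the escort of the SREBPs, was not called at 108 ± 16.7 against 103 ± 9.02 CPM, nor was Insig2 at 46.3 ± 13.6 against 63.9 ± 11.7 CPM. The proteases that cut SREBPs were not called either, with Mbtps1 at 183 ± 14.4 against 175 ± 9.20 CPM and Mbtps2 at 27.5 ± 6.22 against 34.4 ± 4.39 CPM. In uptake and transport, 1 of 5 genes was called lower (10.7% of all genes were), which is Npc2, a lysosomal sterol carrier (-1.16, but 0.037 with spike-in scaling and -0.91 relative to the median gene). Without S1 and S2, Npc2 stood at -0.65 (edgeR adjusted p = 0.0271), and its call was lost with glmTreat. Npc1 (138 ± 38.4 against 188 ± 28.9 CPM), Lipa (58.2 ± 4.98 against 58.9 ± 6.94 CPM), Scarb1 (30.2 ± 10.3 against 20.2 ± 2.41 CPM) and Stard4 (7.58 ± 4.81 against 2.90 ± 1.65 CPM) were not called.

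In efflux, storage and LXR genes the directions were mixed. Soat1, which esterifies cholesterol for storage, was called higher at 196 ± 14.7 against 73.1 ± 37.4 CPM (log2 fold change 1.42, edgeR adjusted p = 0.00893). Its call was lost with glmTreat and with spike-in scaling, and leaving out S1 and S2 gave 1.03 (edgeR adjusted p = 0.0287). Apoe, a lipid carrier, was called lower at 7.17 ± 2.55 against 99.5 ± 54.7 CPM (-3.79, adjusted p = 0.00143), and it was the member of the 7 lists that was still called with spike-in scaling (-2.46, adjusted p = 0.0426). Without S1 and S2 its log2 fold change was -2.90 (edgeR adjusted p = 0.00226). Nr1h2, an oxysterol receptor, was called lower (-0.64, but 0.40 with spike-in scaling and -0.54 relative to the median gene), a call that 11 of the 18 alternatives kept and that was lost without S1, without S8 and without S1 and S2. The pump Abca1 (53.1 ± 4.17 against 51.4 ± 13.7 CPM), the receptor Nr1h3 (7.41 ± 1.14 against 10.1 ± 1.84 CPM) and Mylip (19.98 ± 9.69 against 26.9 ± 6.82 CPM) were not called. Nor were Abcg1 and Ch25h, whose means were below 1 CPM in both groups.

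**Figure D5:**
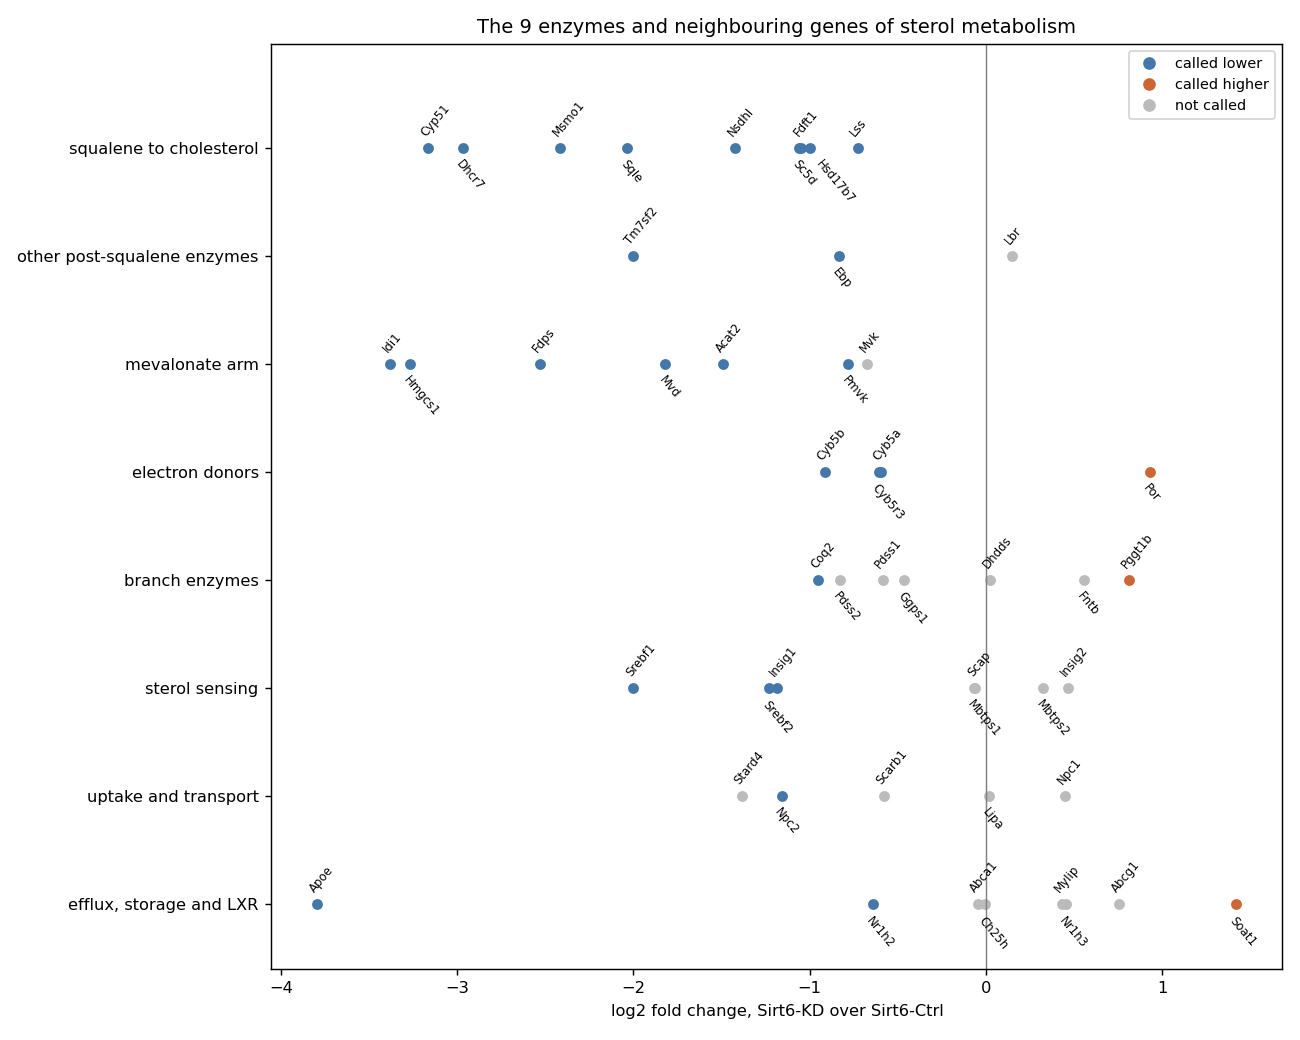
Log2 fold change (Sirt6-KD against Sirt6-Ctrl) of the 9 enzymes and the 41 genes of the 7 lists, 1 point per gene (blue called lower, orange called higher, grey not called). The 9 enzymes and 6 of the 7 mevalonate genes lie to the left as called lower, and Por, Pggt1b and Soat1 are the 3 genes called higher; among the called genes, Lss, Hsd17b7, Ebp, Cyb5a, Cyb5b, Cyb5r3, Pmvk, Coq2, Npc2 and Nr1h2 change sign with spike-in scaling.

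The genes whose pattern over the 8 libraries was most like the mean of the 9 enzymes were found by the root mean square distance of their centred log2 CPM, a description with no test. The mean centred profile of the enzymes ran from 0.67 (S3) to 1.14 (S1) in Sirt6-Ctrl and from -0.95 (S6) to -0.83 (S7) in Sirt6-KD. The nearest gene was Fasn, fatty acid synthase, at a distance of 0.0842, with 332 ± 47.6 CPM in controls and 102 ± 10.5 CPM after knockdown. Also near were Tlcd1, a membrane lipid protein (0.146), Cdc123, an assembly factor for translation initiation (0.15), and Srebf1 (0.157). These 4 were called lower, with log2 fold changes from -2.0 for Srebf1 to -1.61 for Cdc123. Among the 9 enzymes themselves, Nsdhl (0.181) and Sqle (0.204) lay nearest their mean, and Dhcr7 (0.645) and Cyp51 (0.759) lay farthest from it. The 8 libraries form 2 groups, so any gene with a like difference between them lies near by construction.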

How the data were processed

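Primary rat NP cells with ShSirt6 (Sirt6-KD) or control ShRNA (Sirt6-Ctrl) were profiled by RNA-seq, 4 libraries per group. Per the labels, the submitters' processing notes name Trimmomatic 0.36, STAR 2.5.2b, featureCounts of Subread 1.5.2, DESeq2 and the build Rnor_6.0. The authors deposited raw read counts for 32975 rows, 92 of them ERCC spike-ins, without normalization. A second deposited table gave gene names and was used for nothing else. Its columns of the authors' own comparison (log2 fold changes, p-values and normalized signal) were not used. Strand settings of the counting are not given in the sources used here, so overlapping genes may share reads.

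Groups were taken from the sample labels, and no pairing by rat could be made. Counts were filtered with filterByExpr, which left 13313 rows (13250 genes and 63 spike-ins), normalized by TMM and tested by the two-sided quasi-likelihood test of edgeR 4.0.16 in R 4.3.3, and p-values were adjusted over the whole table by Benjamini and Hochberg's method. Calls needed an adjusted p below 0.05 together with a change of more than 1.5-fold. No p adjusted over a list alone is given. Levels are CPM on TMM-scaled library sizes, given per library or as mean ± SD (n = 4). Read depth was 31994838 to 40124813 counts, and 3 counts correspond to 0.0727 to 0.0927 CPM, which covers counting error only. Neighbouring enzymes were compared by exact two-sided permutation of the log2 count ratio (pseudocount 0.5) in scipy 1.17.1. The scripts were tested on simulated data.

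Alternatives were other scalings, filters, tests (DESeq2 1.42.0, limma-voom of limma 3.58.1, glmTreat), each library left out in turn, S1 and S2 left out, spike-in rows removed and a loess correction (span 0.5) for gene length, which was known for 86% of genes. Their use on single genes of the lists was chosen after the data were seen. The text names the 9 enzymes, Sirt6, the members of the 7 lists, the markers and genes among the 5 nearest the enzymes' mean profile. Some genes that this rule covers are not reported here, and they were left out of the lists and their counts. The members, lists and alternatives were chosen with earlier results of these data known. Because replicates are described only as independent experiments, p-values measure the spread between these libraries.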

Additional observations from a re-analysis of the deposited data

Results flagged for a closer look

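Over 31 genes, each of the 2 groups of 4 libraries was examined for a library far from the others, taken as a gap to its nearest neighbour, as a share of the range of the group, above Dixon's 95% critical value. Of 62 such groups 2 met this, where chance alone would give 3.1. Lss in Sirt6-Ctrl had its lowest library, S2, at 55.1 CPM, a gap of 0.911 of the range below the other controls (84.1 to 86.9 CPM), and S2 was also the library with the highest spike-in share (9.80%). Por in Sirt6-KD had its lowest library, S8, at 294 CPM, a gap of 0.892 of the range below S5 to S7 (377 to 387 CPM). What sets these libraries apart for these genes was not tested.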

How the results depend on the processing

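All alternatives were chosen with earlier results known. With spike-in scaling the count of enzymes called lower was 0 in place of 9. In the other lists, of 41 genes, 1 (Apoe) was called lower in place of 18 and 0 were called higher in place of 3. At an unadjusted p below 0.05 in edgeR, 9 of the 41 were higher, as were 4219 of all 13250 genes tested. In that scaling 2 enzymes changed sign, Lss at 0.15 and Hsd17b7 at 0.087. The cause was not tested. Over the whole table, 1416 genes called lower and 1063 called higher became 4 and 20 with spike-in scaling, 185 and 92 with glmTreat, 709 and 810 without S1 and S2, and 1667 and 647 with the length correction. Leaving out each library gave 700 to 1913 lower and 445 to 1699 higher genes, and 7 to 9 enzymes called. Of 153 values of single enzymes under the 17 alternatives other than glmTreat, 135 kept their direction and side of the threshold, 16 kept their direction only and 2 reversed. Leaving a library out of the neighbour ratios leaves 3 against 4, where the exact test cannot reach 0.05. In these, the 6 pairs whose groups were apart kept their direction, while Sc5d over Hsd17b7, near 0 from the start, ran from -0.19 to 0.048 and changed sign without S3 (0.017), S4 (0.020) or S5 (0.048). Adding 5 counts in place of 0.5 to each count kept every pair on its side of the threshold. No paired analysis was possible because no label ties a control library to a knockdown library. Depth did not limit the enzymes, the lowest of which had 80 counts.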
